A study of Mus musculus with 2 samples.

Results

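In mouse T helper 2 (Th2) cells, 860 open regions away from promoters lay in 67 dense clusters of 10 or more. They were 2.69% of the 31951 distal regions found in both ATAC-seq libraries and 1.95% of all 44058 regions found in both. ATAC-seq marks open chromatin by inserting sequencing adapters into accessible DNA, and each deposited list gives the regions where insertions piled up. Overlapping regions of both lists (at least 1 bp) were joined, and a joined region with both lists in it is called shared. A shared region was distal when its centre was over 1 kb from every protein-coding transcription start site of the GENCODE mouse annotation (build mm10, GRCm38). Distal shared regions separated by 12500 bp or less were stitched into 1 group, and groups of at least 10 were kept. The members were therefore chosen by measured values, namely presence in both lists and closeness to other regions, so their number, their density and the upper limit of their gaps are descriptions of the choice.

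Both libraries came from Th2 primary cells of the mouse strain C57BL/6NJ, differentiated from CD4+ T cells, with sex not collected and age unknown. There was 1 group, with no other condition and no untreated control. The labels call the libraries biological replicates 1 and 2, from separate biosamples that share a single donor record. Separate animals are not recorded, so differences between the libraries measure a spread that could be technical. Sequencing depth is unknown, and no p-value was computed.

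Enhancers are stretches of DNA that raise transcription of a gene, often from far away, and the ones in use are open to DNA-cutting enzymes. Dense runs of enhancers, gathered by stitching neighbours into a single unit, have been described around genes that define a cell's identity. Th2 cells are the helper T cells that make interleukins 4, 5 and 13 under the transcription factor GATA3. AP-1, ETS, RUNX and STAT proteins are transcription factors of activated T cells, while CTCF is a zinc finger protein that binds insulators and anchors chromatin loops.

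The sequences that show what the members look like are 120 bases around the summit of the strongest member (by the mean fold of both replicates) in each of the clusters ranked 16 to 21. Rank is by the sum of fold enrichment over the members, where fold enrichment is the authors' value per peak for signal over the caller's local background. All were read from the RefSeq GRCm38 genome, plus strand, and capitals mark matches to any of the 23 motifs searched.

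Gimap1 intron, chr6:48733038-48733157: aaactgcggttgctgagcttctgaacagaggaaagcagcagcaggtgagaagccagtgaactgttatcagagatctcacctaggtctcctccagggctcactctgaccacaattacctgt
Downstream of Il10, chr1:131038308-131038427: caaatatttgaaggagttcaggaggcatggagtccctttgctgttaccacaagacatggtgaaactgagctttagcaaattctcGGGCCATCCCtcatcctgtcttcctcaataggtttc
Intergenic, near Zbtb38, chr9:96773302-96773421: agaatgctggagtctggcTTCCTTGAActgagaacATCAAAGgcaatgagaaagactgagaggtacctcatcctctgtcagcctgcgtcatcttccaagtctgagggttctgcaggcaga
Auh intron, chr13:52914656-52914775: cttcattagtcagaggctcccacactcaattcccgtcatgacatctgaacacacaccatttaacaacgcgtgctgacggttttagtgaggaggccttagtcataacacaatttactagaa
Fyb intron, chr15:6612889-6613008: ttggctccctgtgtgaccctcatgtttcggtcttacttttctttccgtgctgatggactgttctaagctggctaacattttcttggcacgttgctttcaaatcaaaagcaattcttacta
Intergenic, near Cd47, chr16:49982388-49982507: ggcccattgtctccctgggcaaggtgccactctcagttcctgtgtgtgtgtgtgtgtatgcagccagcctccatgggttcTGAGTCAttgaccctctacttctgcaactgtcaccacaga

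The AP-1 letters TGANTCA stand in the Cd47 sequence (TGAGTCA). A STAT match (TTCNNNGAA) and a TCF and LEF match (ATCAAAG) stand in the Zbtb38 sequence, while the sequence downstream of Il10 has an NF-kB match. The Gimap1, Auh and Fyb sequences hold none of the 23 motifs. Lone distal regions, with no other distal shared region within 12500 bp, serve for comparison. The choice left out a chromosome and windows that overlap an annotated untranslated region. Among the rest, the 2 lone regions with the highest fold enrichment read as follows.

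Lone, Cntnap5b intron, chr1:100180143-100180262: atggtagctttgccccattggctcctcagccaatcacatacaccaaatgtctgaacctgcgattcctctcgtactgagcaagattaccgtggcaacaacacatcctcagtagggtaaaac
Lone, near 4930467E23Rik, chr8:19784596-19784715: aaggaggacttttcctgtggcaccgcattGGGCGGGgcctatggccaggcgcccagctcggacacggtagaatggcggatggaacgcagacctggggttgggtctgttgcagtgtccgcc

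The Cntnap5b region reached 41.6 in replicate 1 and 44.0 in replicate 2 without a match to any motif, and the region near 4930467E23Rik reached 32.5 and 34.8 with a KLF and SP match (GGGCGGG). No member had as high a fold, since the highest member values were 15.2 and 16.6. The central 50 bases of each of these lone regions had 1 exact copy. Near copies elsewhere in the genome were not searched, so whether reads from similar sequences raised these folds was not tested.

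The clusters were few and compact. Of 19137 stitched groups, 12586 were lone regions and 67 (0.350%) had 10 or more. The clusters spanned 4.49 Mb in all, 0.165% of the 21 main chromosomes, and lay on 18 of them, with 7 each on chromosomes 4 and 9 and none on chromosomes 12, 18 and Y. A cluster had a median of 11 members (range 10 to 25) over a median of 63.1 kb (range 30.0 to 128.7 kb). The open regions themselves covered 15.1% of the span at the median, between 10.04% and 29.3%. Just inside the limit, the 19 clusters of exactly 10 had median folds of 4.69 and 5.12 in replicates 1 and 2 and a median spacing of 5285 bp. Just outside it, the 37 clusters of exactly 9 had median folds of 4.93 and 5.30 and a median spacing of 5089 bp.

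**Figure D1:**
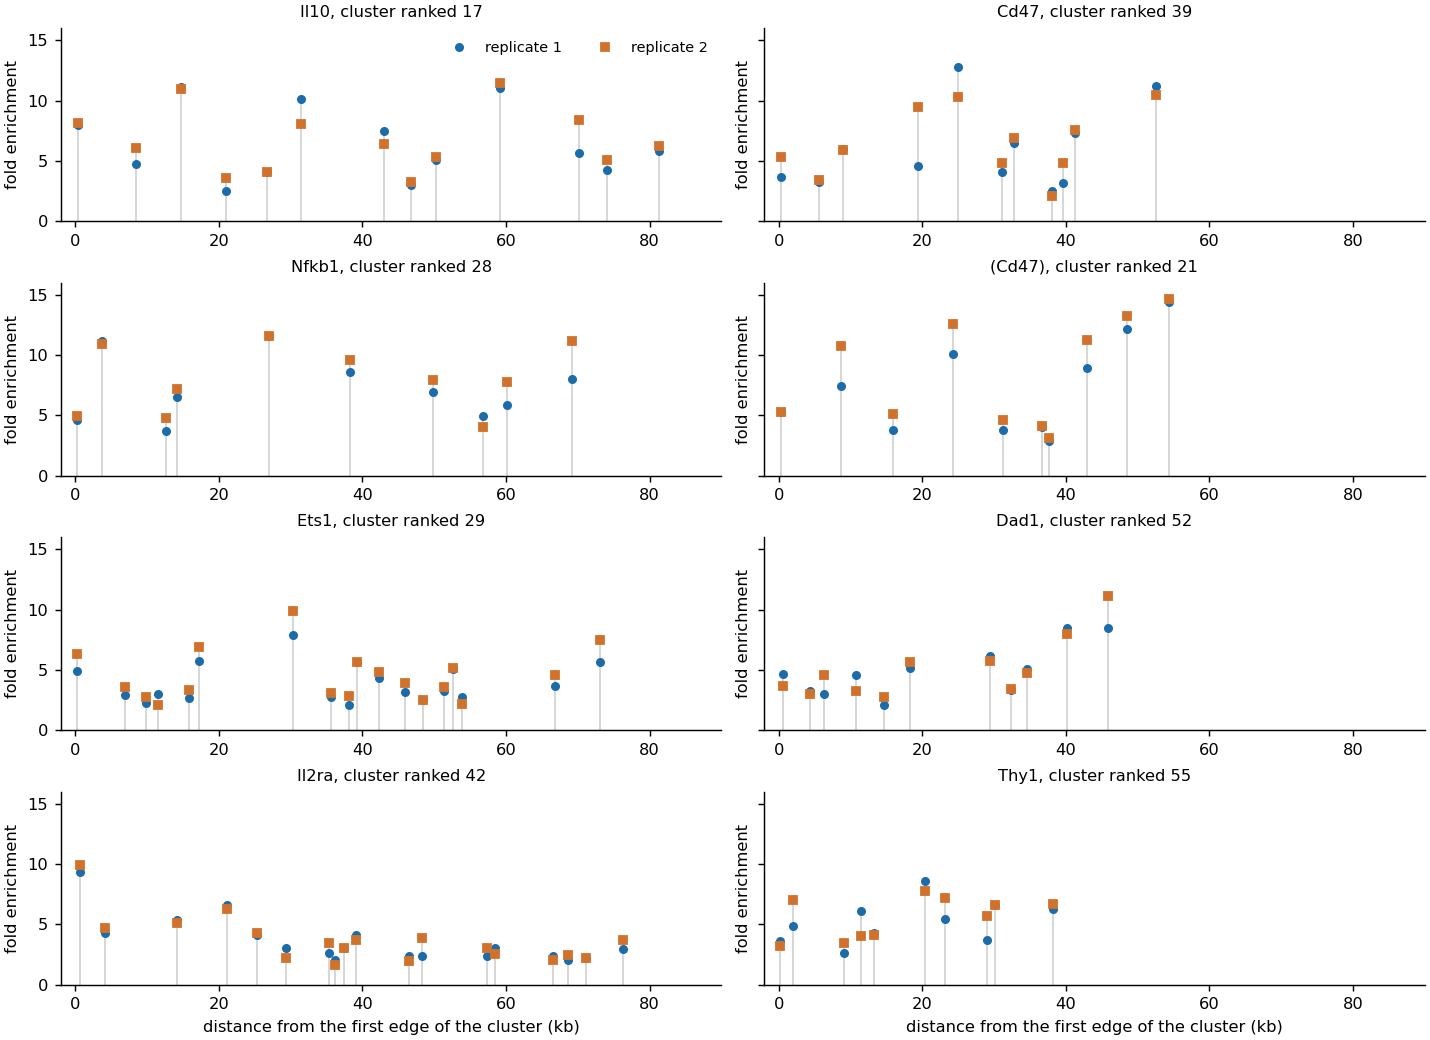
Maps of 8 clusters beyond rank 15, with distance from the cluster's first edge in kb on the x axis and fold enrichment on the y axis; each line is 1 member, with a circle for replicate 1 and a square for replicate 2, and a name in brackets is a nearest gene. The 18 members at Il2ra stay low apart from a few, while the 10 at Nfkb1 are farther apart and higher.

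Neighbouring members lay a median of 5271 bp apart, centre to centre, with quartiles of 2796 and 7812 bp over 793 gaps. In groups of 2 to 9 the median was 6054 bp. Of the 793 gaps, 71 were over 10 kb from edge to edge, close to the stitching limit. The next distal shared region outside a cluster was 19.2 kb away at the median and at most 71.9 kb. Spacing varied between clusters. The shortest median spacings were 2260 bp at Pgs1 and Dnah17, where median folds were 3.23 and 3.86, 2556 bp between Clec2d and Cd69, and 2831 bp at Thy1, with Il6ra and Celf2 next at 2840 and 2904 bp. At Nfkb1, by contrast, the median spacing was 8929 bp, the highest of all 67.

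In all, 8 clusters lay within 250 kb of another, and 11 within 1 Mb. A cluster of 10 inside Chd7, a chromatin remodeller gene (chr4:8797657-8854510), was followed 33.6 kb later by a cluster of 11 beyond the gene (chr4:8888083-8936412). Cd47, which encodes the integrin-associated "do not eat me" surface protein, had 11 members around its start site, 7 of them intergenic (chr16:49766079-49819172). A further 10 lay 108.7 kb away, 61.4 to 115.5 kb from its start site (chr16:49927890-49982797). The Ets1 cluster stood 142.9 kb from the one at Fli1, and the Irf2bp2 cluster 165.7 kb from the one nearest Tomm20. The Il2ra cluster lay 397.6 kb from the cluster at Prkcq.

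Most clusters sat on genes, and those genes were long. In all, 36 clusters overlapped 1 protein-coding gene, 19 overlapped 2 or more and 12 overlapped none, 7 of which overlapped a long non-coding RNA gene. The 85 overlapped genes had a median length of 42.5 kb, against 17.4 kb for all 21911 protein-coding genes. The part of gene length in this overlap was not tested. Together with the nearest genes of each member, 124 genes (0.566% of protein-coding genes) were at a cluster. In 36 clusters every member had the same nearest gene. Nearest is by linear distance, and no measurement here ties a member to a gene.

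By position, 451 members (52.4%) were intronic, 13 (1.51%) exonic and 396 (46.0%) intergenic. Lone regions were 50.5% intronic, 5.36% exonic and 44.1% intergenic. The median distance to a start site was 26.9 kb for members and 24.5 kb for lone regions. Members lay 10 to 100 kb from a start site in 65.5% of cases against 58.6% of lone regions, and farther than 100 kb in 11.05% against 15.2%.

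Beyond rank 15, several clusters stood at cytokine and receptor genes. The cluster at Il10, the gene of the anti-inflammatory cytokine interleukin 10, and the neighbouring kinase gene Mapkapk2 (chr1:130979266-131061102) had 13 members, 11 of them intergenic. Its median fold was 5.65 in replicate 1 and 6.24 in replicate 2. The strongest member, 18.6 kb from the Il10 start site, reached 11.1 and 11.5. No shared promoter region stood in that span.

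Il2ra encodes the interleukin 2 receptor alpha chain, and its cluster (chr2:11616101-11693520) had 18 members, 12 of them intronic. Its median folds of 2.997 and 3.26 were the lowest of all clusters in both replicates. The strongest member, the first in the cluster and 9.51 kb from a start site of Gm17490, reached 9.36 and 9.93. At Il6ra, the interleukin 6 receptor gene (chr3:89860946-89911543), 12 members had medians of 3.76 and 4.12, with 8 in introns and 3 in exons.

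Tnf, Lta and Ltb, adjacent genes of tumour necrosis factor family cytokines, shared a cluster of 11 (chr17:35178436-35233167), which also covered Lst1, Nfkbil1 and Gm16181. Its members lay at most 6.04 kb from a start site, and the strongest, 5.08 kb from that of Lta, read 7.23 and 9.68. Cd40lg, which encodes the CD40 ligand by which helper T cells instruct B cells, had 10 members on chromosome X (chrX:57177168-57239224) with medians of 4.45 and 4.90. Tnfrsf8 (CD30, a receptor of activated lymphocytes) had 11, with medians of 4.68 and 5.21.

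Cytokine signalling genes were also represented. Jak1, the Janus kinase gene, held 12 members, all intronic, between 10.8 and 82.4 kb from a start site. Its strongest member reached only 7.67 and 7.99. The cluster over Cish, a feedback inhibitor of STAT5 signalling, with Mapkapk3 and Hemk1, had 11 members with medians of 4.35 and 4.55.

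Genes of T cell identity and antigen receptor signalling carried clusters as well. Ets1, an ETS family factor gene of lymphocytes (chr9:32692721-32766391), had 18 members, 16 of them intronic, at median folds of 3.17 and 3.74. A further 6 regions in its span were found in 1 replicate only. Cd5 and Cd6, neighbouring genes of scavenger receptor family proteins that damp T cell receptor signals, shared 13 members (chr19:10732845-10814235). The strongest of these, intergenic and 24.7 kb from a Cd5 start site, read 10.4 and 11.4, and the shared promoter region in the span 6.65 and 7.91. Thy1, a surface marker of mouse T cells (chr9:44011022-44049943), had 10 members, all intergenic, with medians of 5.16 and 6.14. Ptprc encodes the phosphatase CD45, and its cluster of 14 had medians of 4.24 and 5.22.

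Nfkb1, the gene of the NF-kB p50 subunit (chr3:135662259-135731799), had 10 members, of which 5 were intronic and 5 intergenic. Its medians of 6.74 and 7.84 were among the 5 highest beyond rank 15. The adaptor genes Fyb (14 members, all intronic) and Trat1 (11 members) had medians of 3.97 and 4.77, and of 6.53 and 6.58. Egr2, an early gene of antigen receptor signalling, had 11 members with medians of 5.59 and 6.31. The strongest, of 9.86 and 10.7, is a region of 2848 bp that contains the Egr2 start site and counted as distal because its centre lay 1.15 kb away. Of the 860 members, 2 contained a start site, the other at Btn1a1. The next Egr2 member, 7936 bp from the start site, read 6.66 and 12.53. The cluster over Sla, an adaptor gene inside Tg, had 10 members in introns with medians of 3.77 and 4.28.

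The cluster at Dad1 (chr14:54193301-54239510) covered 26 T cell receptor alpha gene segments, the constant segment Trac among them. Its 11 members had medians of 4.67 and 4.55. The strongest member, in the Dad1 intron at the cluster's far end, read 8.49 and 11.2 and held the CTCF core.

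Gimap genes encode GTPases of immune-associated proteins in lymphocytes, and 6 of them with Gm28053 shared 17 members over 85.5 kb (chr6:48656646-48742128), the longest span beyond rank 15. Here 5 shared promoter regions stood in the span, 1 of them as high as 11.5 and 13.6, above the strongest member at 10.8 and 12.3.

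Other overlapped genes among ranks 16 to 45 were Auh (11 members, medians 6.49 and 7.47), Sema4b (14 over 83.2 kb), Inpp4b (14), Thada (14), Prkca (12), Ankrd11 (13), Arhgap25 (11), Dgkd (11) and Mgll (11). Inpp4b removes a phosphate from phosphoinositides, and its 14 members were all intronic with medians of 5.20 and 5.07. The 14 members in Thada introns lay 85.1 to 137.4 kb from their nearest start site, and Zfp36l2 was the gene nearest to the cluster. Gpr83 and Izumo1r, the latter the folate receptor 4 gene known from regulatory T cells, shared 10 members. That cluster's medians of 6.998 and 6.93 were the highest beyond rank 15 for replicate 1, and none of its members held AP-1 letters. Beyond rank 45 there were also clusters of 10 or 11 at Btn1a1, Poc1b, Ago2, Myh9, Abhd17c and Cytip.

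Beyond rank 15, 10 clusters overlapped no protein-coding gene. Their nearest genes were Zbtb38, Cd47, Rbpj, Myc, Chd7, Olfr1324, Eps8l3, Sec22b, S1pr1 and Clec2d. The 14 members nearest Myc, the growth regulator gene, lay 815.8 to 862.3 kb from it (chr15:62802764-62849932), at median folds of 5.34 and 5.37. Rbpj is the DNA-binding partner of Notch, and was the nearest gene for 6 of the 11 members of its cluster, at 114371 to 142027 bp, while the other 5 were nearest Smim20, at 127144 to 143960 bp. S1pr1 encodes a receptor for exit from lymph nodes and had 10 members at 13.9 to 54.0 kb, with medians of 4.91 and 6.76. Near Sec22b, 10 members included 1 of 15.2 and 14.7, which made up 23.9% of the cluster's summed fold. The cluster nearest Olfr1324 on chromosome X (chrX:50566209-50635717) overlapped Firre, a long non-coding RNA gene, with 12 members and medians of 4.77 and 6.34. The cluster between Clec2d and Cd69, an early activation marker gene, was the shortest at 30.0 kb (chr6:129208565-129238595), and 29.3% of its span was open.

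The lists of known genes describe only part of this set of loci, since many of the 124 genes at a cluster are in no list. Against 0.566% of all protein-coding genes at a cluster, the pan-T cell list had 5 of 17, among them Cd5, Cd6, Thy1 and Ets1. The activation list had 7 of 19 (Egr2, Irf4, Cd40lg, Lta and Tnf overlapped, with Cd69 and Myc nearest). The naive and memory list had 3 of 12 (Bach2, Id3 and S1pr1), the antigen receptor signalling list 3 of 21 (Prkcq, Nfkb1 and Tnfaip3) and the JAK and STAT list 3 of 15 (Jak1, Cish and Socs1). Il2ra was the only hit among 12 regulatory T cell genes and Chd2 among 15 genes of repressors and chromatin, and 1 of 14 housekeeping genes was hit. No gene was hit in the Th1 (15 genes), Th17 (14), follicular helper (10), CD8 and natural killer (11), B cell (12), myeloid (12), mast cell and basophil (9) or non-haematopoietic (14) lists. The lists were written with earlier results of these data known, so their counts are descriptions.

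**Figure D2:**
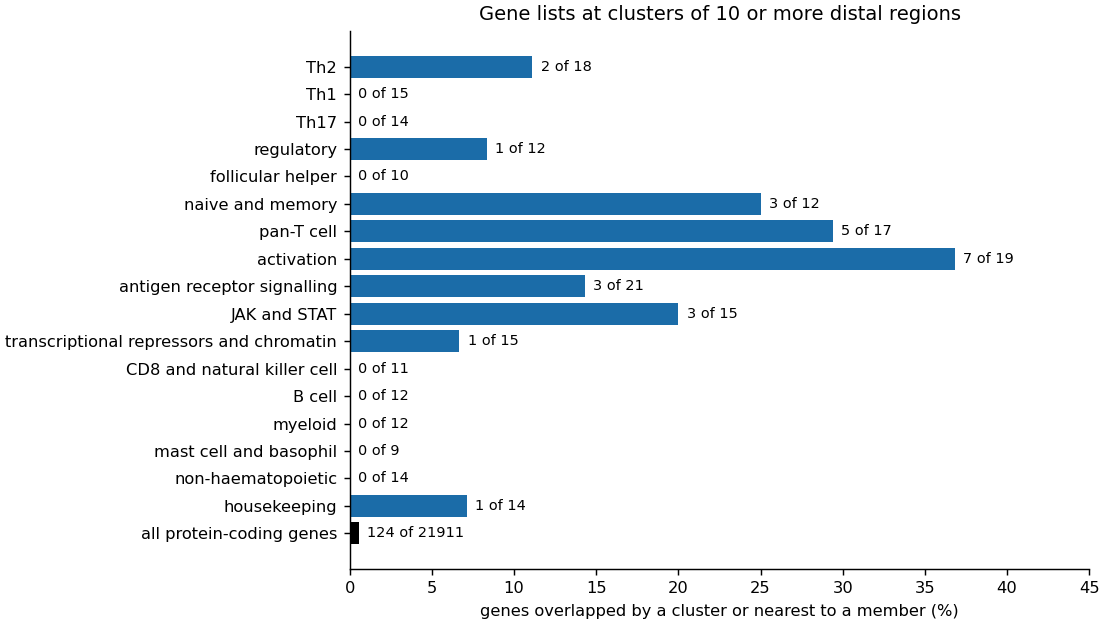
Percentage of each gene list overlapped by or nearest to a cluster (x axis) for 17 lists, with the number of genes hit of those listed beside each bar and all protein-coding genes in black. The activation and pan-T cell lists stand highest, at 7 of 19 and 5 of 17, beside 0.566% for all protein-coding genes.

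Of the 18 Th2 genes, only Ccr4, the gene of a Th2 chemokine receptor, and Il10 were at a cluster. Open promoters were present at the Th2 loci all the same, with a shared region within 1 kb of a start site at 15 of 18. The same held for 57.3% of all protein-coding genes, 17 of 17 pan-T cell genes and 14 of 14 housekeeping genes. It also held for 10 of 10 follicular helper, 11 of 12 naive and memory and 10 of 12 regulatory T cell genes. The counts were 12 of 15 for Th1, 7 of 14 for Th17, 3 of 12 for B cell and 2 of 12 for myeloid genes. The largest stitched group at Gata3 had 9 distal regions, 1 below the limit, although 54 distal shared regions had Gata3 as nearest gene or lay inside it. Those at Il4 and Il13 had 7, and that at Il5 had 6. Over the list, the largest group at a Th2 gene had a median of 5 regions. The median was 8 for pan-T cell genes, 7 for activation genes and 6 for naive and memory genes. It was 4.5 for follicular helper, 4 for regulatory T cell, 3 for Th1, 3 for Th17 and 1 for housekeeping genes.

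Members were wider than lone regions but had a lower fold enrichment. Member regions had a median fold of 4.84 in replicate 1 (quartiles 3.58 and 6.71) and 5.49 in replicate 2 (3.75 and 7.71). Lone regions had 5.69 (4.31 and 7.95) and 6.53 (4.74 and 9.26), so the quartile ranges overlap widely. The ratio of the medians was 0.850 in replicate 1 and 0.842 in replicate 2. Only 53 members (6.16%) had a fold of at least 10 in both replicates, against 11.4% of lone regions, and 62 (7.21%) were under 3 in both, against 0.739%. Median width was 676 bp for members and 606 bp for lone regions, and it was already 675 bp in groups of 7 to 9. Because some clusters hold more regions than others and neighbours share a locus, members are not independent of each other.

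**Figure D3:**
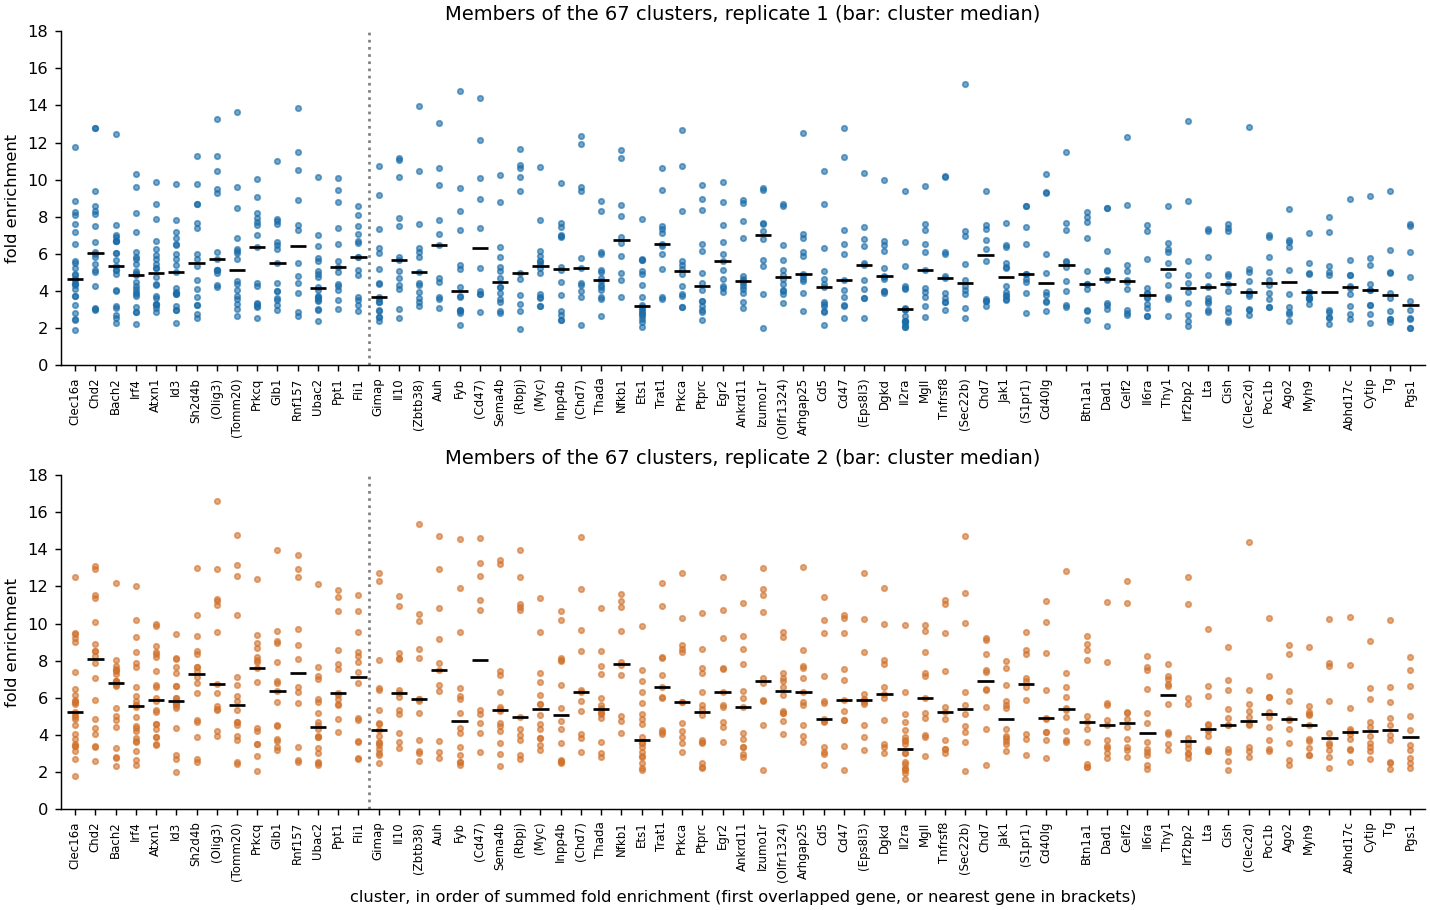
Fold enrichment of each member (y axis) in each of the 67 clusters in order of rank (x axis), by replicate. Strongest members range from 6.90 to 15.2 in replicate 1; the bar is the cluster's median, the dotted line follows rank 15, names in brackets are nearest genes, and 2 clusters are left without a name.

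Fold was lower in larger groups, step by step. Its medians in replicates 1 and 2 were 5.69 and 6.53 for lone regions, 5.47 and 6.23 in groups of 2 or 3, and 5.33 and 6.06 in groups of 4 to 6. They were 5.03 and 5.68 in groups of 7 to 9, 4.81 and 5.40 in groups of 10 to 12, and 4.88 and 5.59 in groups of 13 or more. The last step did not go lower in either replicate.

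The height of the pile of reads ran the other way. From each deposited fold and p-value, the pileup at the summit and the local background were recovered as the whole number that satisfies both (a Poisson tail with a pseudocount of 1, matched to 0.001 in −log10 p), for all 860 members in both replicates. This step was added after the fold values were seen, and it rests on the assumed form of the caller's score. The median pileup of members was 47 in replicate 1 and 66 in replicate 2, against 26 and 34 for lone regions, or 1.81 and 1.94 times as high. The local background was 8.64 and 11.2 for members against 3.48 and 4.17 for lone regions, or 2.48 and 2.69 times as high. Groups of 2 to 9 lay between, with pileups of 33 and 47. The deposited −log10 q had medians of 15.53 and 24.98 in members and 11.6 and 17.4 in lone regions. Members were thus lower in fold and higher in pileup, background and −log10 q, in both replicates, and the part of the higher background in the lower fold was not tested.

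**Figure D4:**
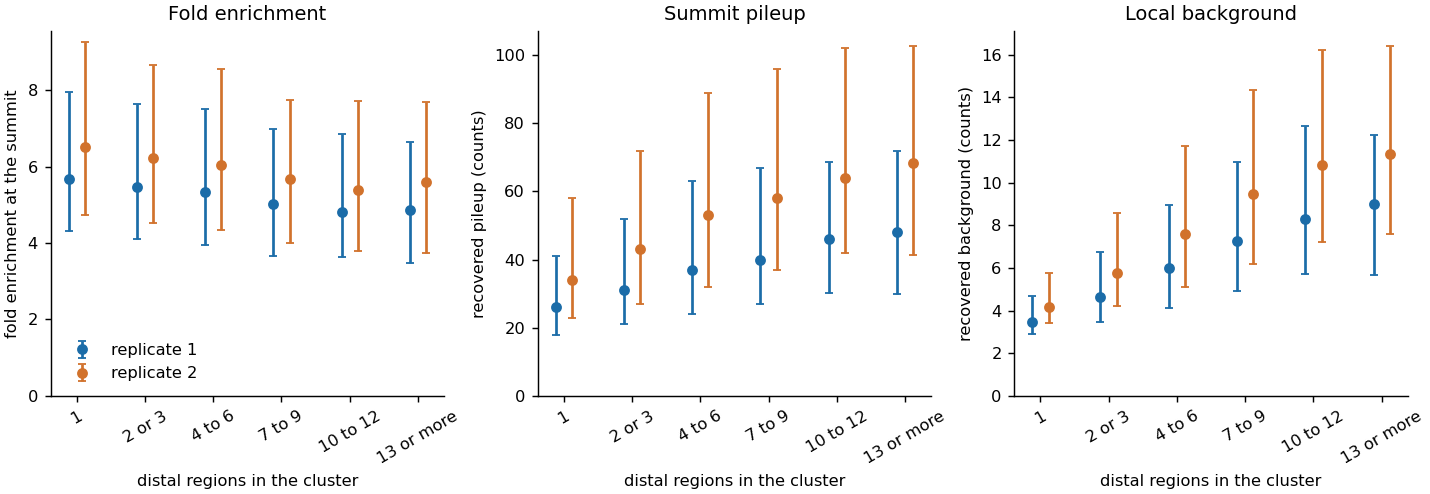
Median fold enrichment, recovered summit pileup and recovered local background (y axes) by the number of distal regions in a stitched group (x axis), for each replicate, with quartiles. Fold falls from 5.69 to 4.88 in replicate 1 between lone regions and groups of 13 or more, while pileup goes from 26 to 48 and background from 3.48 to 8.98.

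Within a cluster, strength was uneven. The strongest member had a median fold of 10.03 in replicate 1 and 11.4 in replicate 2 and supplied 15.1% of the cluster's summed fold at the median, between 8.64% and 26.5%. It was 3.91 times as high as the weakest member at the median. In 31 of the 33 clusters whose span held a shared promoter region, the strongest member had a higher mean fold than every promoter region there. This sets the highest of at least 10 members against the highest of usually 1 promoter region, 46 in all, so the numbers compared favour the members. The number of members hardly followed their strength: over the 67 clusters Spearman's rho between the number and the median fold was 0.116, as a description.

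The replicates ordered members alike. Spearman's rho of fold between replicates was 0.878 over 860 members and 0.776 over lone regions, and 0.982 for the summed fold of 67 clusters, all as descriptions over points that share 2 libraries. Fold was higher in replicate 2 for 588 members (68.4%), near the 68.1% of all distal shared regions. The spans also held 162 regions found in 1 replicate only, 35 in replicate 1 and 127 in replicate 2. That was 36.1 per Mb against 8.38 per Mb elsewhere, while shared regions stood at 201.9 per Mb against 15.9. Of the 15 leading clusters, 12 were also among the first 15 by each replicate alone.

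Motifs were counted as exact letters on either strand in the 200 bases around the mean summit. A match is a description of the letters, not a bound site. Base composition was alike, with a median of 47.5% G and C and 2 CpG pairs per window in members and in lone regions. The AP-1 letters TGANTCA stood in 201 members (23.4%), 27.7% of lone regions, 27.8% of all distal shared regions and 21.2% of all shared regions. Their share was 27.1% in groups of 7 to 9, with 29.1% in clusters of exactly 9 and 23.7% in those of exactly 10. The lower share of members was thus not seen just below the size limit. The ETS letters CAGGAAG stood in 167 members (19.4%) and 17.2% of lone regions, though the share was 22.1% in groups of 10 to 12 and 16.8% in groups of 13 or more. That difference of 2.25 percentage points reversed to -0.829 with a reciprocal overlap of 50% and to -0.300 with a −log10 q of at least 10. The RUNX letters TGTGGTT stood in 78 members (9.07%) and 9.65% of lone regions, a difference of -0.576 points that reversed to 0.0712 and 0.0433 when replicate 1 or replicate 2 was left out. The STAT letters TTCNNNGAA stood in 134 members (15.6%) against 11.96% of lone regions and 12.47% of all distal shared regions. GATA letters (AGATAAG) stood in 3.95% of members and 3.55% of lone regions, NFAT letters (GGAAAAT) in 3.60% and 2.96%, and TCF and LEF letters in 5.58% and 4.50%. For 474 members (55.1%) none of the AP-1, ETS and RUNX letters was found, against 54.2% of lone regions.

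The CTCF core was the motif that differed most in share. It stood in 28 of 860 members (3.26%), 1302 of 12586 lone regions (10.3%), 8.10% of all distal shared regions and 6.63% of all shared regions. By group size the share was 10.3% in lone regions, 7.84% in groups of 2 or 3, 5.39% in groups of 4 to 6, 3.61% in groups of 7 to 9, 2.82% in groups of 10 to 12 and 3.69% in groups of 13 or more. It was lower in members than in lone regions within each quartile of fold, the quartiles being set over all distal shared regions. From the lowest quartile to the highest, the shares were 1.55% against 11.3%, 5.88% against 14.8%, 3.83% against 10.7%, and 2.65% against 5.24%. The quartiles held 322, 204, 183 and 151 members in that order, so the 28 members with the core leave few in each. The MARE motif, an extended AP-1-like element bound by MAF and BACH proteins, stood in 5 members (0.581%) and 1.69% of lone regions. GGGCGGG stood in 3.37% and 4.78%.

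By quartile of fold, the AP-1 shares differed most in the highest. In the 3 lower quartiles of fold, in rising order, AP-1 letters stood in 18.01%, 25% and 29.5% of members and in 17.97%, 22.7% and 29.4% of lone regions. In the highest quartile they stood in 25.2% of members against 38.3% of lone regions. That quartile has no upper limit, and lone regions in it reach higher folds than members, so it does not compare regions of equal strength. STAT letters were more frequent in members in each quartile, at 14.6% against 10.5% in the lowest and 17.9% against 14.6% in the highest. The STAT6 letters, searched as a separate motif with a wider gap, stood in 7.91% of members and 6.51% of lone regions. By quartile their shares were 6.21% against 6.05% in the lowest and 7.95% against 7.03% in the highest. Whether the STAT and STAT6 differences hold under the alternative settings was not tested. Members with AP-1 letters had median folds of 4.95 and 6.07, those without 4.75 and 5.25. Lone regions with them had 6.31 and 7.77, and those without 5.50 and 6.11. Per cluster the share of members with AP-1 letters ran from 0% to 55% with a median of 21.4%, and 3 clusters had none.

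The CTCF cores among members were unevenly placed. Split after the values were seen, the 134 first and last members held 14 (10.4%) and the 726 inner members the other 14 (1.93%). The first distal shared regions beyond a cluster held 11 of 133 (8.27%). The share of end members was thus near the 10.3% of lone regions, and that beyond near the 8.10% of all distal shared regions. Only the inner members stood well below these shares. By the rule, end members, like lone regions, border a gap of over 12500 bp. Groups of 2 to 9 were not split in this way. In 47 clusters no member held the core. AP-1 letters did not follow this split, with 23.9% of end members and 23.3% of inner members. End members had median folds of 5.46 and 6.18, and inner members 4.66 and 5.36.

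**Figure D5:**
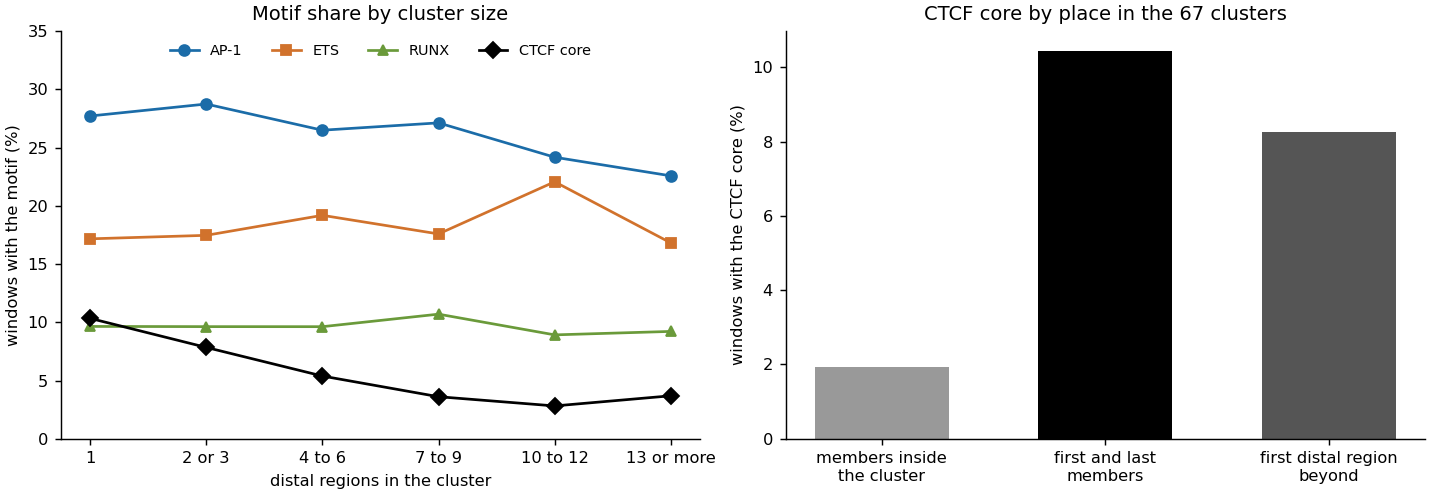
Left, percentage of 200-base windows with each of 4 motifs (y axis) by the number of distal regions in the stitched group (x axis); right, percentage of windows with the CTCF core (y axis) in inner members, first and last members and the first distal regions beyond. The CTCF core goes from 10.3% in lone regions to 3.69% in groups of 13 or more, and stands at 1.93%, 10.4% and 8.27% in the bars.

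The next 4 sequences show the core, again as 120 bases of the plus strand of GRCm38 with motif matches in capitals. They are the 2 strongest members and the 2 strongest lone regions with the match inside the printed window, chosen after their values were seen.

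Member, Dad1 intron, chr14:54239150-54239269: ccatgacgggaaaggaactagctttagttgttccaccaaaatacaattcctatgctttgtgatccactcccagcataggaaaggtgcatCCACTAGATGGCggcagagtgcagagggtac
Member, near Zbtb38, chr9:96818644-96818763: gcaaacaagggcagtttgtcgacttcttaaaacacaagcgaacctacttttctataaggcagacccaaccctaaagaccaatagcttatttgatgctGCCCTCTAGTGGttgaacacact
Lone, near Hsp90b1, chr10:86637028-86637147: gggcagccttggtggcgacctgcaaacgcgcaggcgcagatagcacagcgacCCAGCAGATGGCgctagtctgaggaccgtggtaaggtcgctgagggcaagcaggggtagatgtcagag
Lone, near Stard10, chr7:101310701-101310820: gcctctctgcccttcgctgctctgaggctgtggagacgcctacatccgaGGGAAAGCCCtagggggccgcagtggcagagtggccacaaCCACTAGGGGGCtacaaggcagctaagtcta

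The Dad1 and Zbtb38 members are each the last member of their cluster, with folds of 8.49 and 11.2, and of 6.33 and 10.5. The lone regions read 16.4 and 20.1 near Hsp90b1 and 15.4 and 15.51 near Stard10. Over all 28 members with the core, the median fold was 5.34 and 5.65, against 4.81 and 5.49 for the other members. Of these 28 members, 14 were first or last in their cluster, and first and last members as a whole had median folds of 5.46 and 6.18. In lone regions the order was opposite, with 5.13 and 6.01 with the core and 5.86 and 6.56 without. The part of place in the cluster in the order among members was not tested.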

How the data were processed

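ATAC-seq peak lists of 2 Th2 libraries, on mm10 per the labels, were used as deposited. The aligner and peak caller are not given in the sources used. The deposited columns read were the fold enrichment per peak (a ratio), the −log10 p and −log10 q, the score and the summit offset. Deposited region names carry the words ASTARR, insert and 96hrs, which the labels do not explain. Fold was used only to describe and rank regions, and sums and means of both replicates rank clusters.

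Regions were joined, classified against GENCODE start sites, stitched and counted in Python 3.11.15 with numpy 2.4.6, pandas 2.3.3, scipy 1.17.1 and pysam 0.24.0. Joining, stitching and the motif search were first tested on simulated data. The classification against start sites and the recovery of pileups were not tested in this way. Gene symbols of 17 lists (240 symbols) all matched the annotation. Genes named are those of clusters ranked 16 to 45, the extremes in size, span, spacing and fold beyond rank 15, and the list genes hit; other genes were chosen after their values were seen. The members and lists were chosen with earlier results of these data known. Alternatives changed the stitching distance, start site distance, overlap, −log10 q, motif window and replicate. Some genes at clusters are not reported here.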

Additional observations from a re-analysis of the deposited data

How the results depend on the processing

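The number of clusters depended on the definition: 67 became 39 with stitching at 10 kb, 135 at 15 kb, 34 with a reciprocal overlap of 50% and 5 with a −log10 q of at least 10, and 115 to 271 with 1 replicate alone. The 860 members became 460, 1699, 434 and 55, and 1490 to 3650 with 1 replicate. The ratio of member to lone fold, 0.846, stayed below 1: 0.800 at 10 kb, 0.879 at 15 kb, 0.836 with reciprocal overlap, 0.747 with the −log10 q limit, 0.839 with start sites measured from the region edge (added after seeing the data), and 0.881 to 0.886 with 1 replicate. Median spacing, 5271 bp, was 4847 bp at 10 kb, 5787.5 bp at 15 kb, 6048 bp with the −log10 q limit and 4657 to 4915 bp with 1 replicate. The intron share, 52.4%, was 46.7% at 10 kb, 53.9% with no start site within 2.5 kb, 40% with the −log10 q limit and 51.2% to 52.5% with 1 replicate.

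Motif shares are given as members minus lone regions, in percentage points. They were computed for AP-1, ETS, RUNX and the CTCF core, and not for STAT or the other motifs. AP-1, at -4.35, was -3.33 at 10 kb, -2.81 at 15 kb, -3.33 with 2.5 kb, -6.37 with the −log10 q limit, -2.20 in 100 bp windows, -2.66 with equal weight for each quartile of fold, and -2.52 to -1.81 with 1 replicate. ETS, at 2.25, was 1.495 at 15 kb, 1.61 with 2.5 kb, 1.19 in 100 bp and 1.83 in 400 bp windows, and 1.47 to 2.00 with 1 replicate, but reversed to -0.829 with reciprocal overlap and -0.300 with the −log10 q limit. RUNX, at -0.576, was -0.358 at 10 kb, -0.375 at 15 kb, -0.708 with 2.5 kb, -0.523 with reciprocal overlap, -3.30 with the −log10 q limit, -0.940 in 100 bp and -0.143 in 400 bp windows and -0.380 with equal weight, and reversed to 0.0433 and 0.0712 with 1 replicate. The CTCF core, an alternative set added after seeing the data, was -7.09 and stayed negative: -8.14 at 10 kb, -7.90 with 2.5 kb, -2.65 with the −log10 q limit, -5.68 in 100 bp and -8.16 in 400 bp windows. With the −log10 q limit only 55 members were left. Apart from these settings, the cause of each move was not tested.

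With 2 libraries of unknown depth, regions too weak to be called in either list are missing, which can split clusters. No paired analysis was possible because there is 1 group.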
